A study of Mus musculus with 24 samples.

Results

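The comparison described here is B6 quadriceps muscle after a saline-treated injury against B6 quadriceps that was never injured. It was made from the 6 libraries of those groups, 3 saline and 3 uninjured, among 24 in the series, across all 14159 genes that carried a symbol in the deposited table. B6 denotes C57BL/6, the common inbred laboratory strain, and the mice were female and 6 to 8 weeks old the day before surgery. A section of 3 mm by 3 mm was cut from the mid-belly of the quadriceps, an injury called volumetric muscle loss (VML). The wound received the saline vehicle and the whole muscle was taken at day 21 for bulk RNA sequencing. Uninjured muscles had neither wound nor saline, so surgery, vehicle and tissue loss cannot be told apart here. The labels give no day for the uninjured muscles, so a difference in age cannot be told apart either. The other 18 libraries were B6 muscles with an implant of decellularized extracellular matrix (ECM) or polyethylene (PE), and all 4 conditions in MRL/MpJ (MRL) mice, a strain studied for its wound healing.

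Adult muscle fibers are repaired by satellite cells, resident stem cells that divide, switch on the transcription factors MyoD and myogenin, and fuse into new fibers. New fibers pass through embryonic and neonatal myosins, and carry a fetal form of the acetylcholine receptor until nerve contact restores the adult form. Macrophages clear debris and steer this repair, while fibroblasts lay down collagen. Mature fibers burn fatty acids and glucose, and the muscle lies beside fat, vessels, nerve and blood, all of which enter a whole-muscle RNA sample.

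Levels are CPM, read counts scaled to a common library total, computed back from the deposited log2 values, and tests used limma on the log2 values of all 24 libraries with Benjamini-Hochberg adjustment. A call needed an adjusted p below 0.05. No gene was called between saline and uninjured B6 muscle (0 of 14159), and 1751 genes (12.4%) had an unadjusted p under 0.05, 895 higher (6.32%) and 856 lower (6.05%). The saline libraries differed among themselves. Saline replicate 2 correlated with uninjured replicates 1 and 3 at r = 0.966 and 0.965 across genes, above its correlation with saline replicates 1 (0.950) and 3 (0.904), and with uninjured replicate 2 at 0.938. Saline replicate 1 correlated with uninjured replicates 1 and 3 at 0.942 each, and with saline replicate 3 at 0.936. These are descriptions over genes that share each library. When libraries were weighted by their agreement with their group, saline replicate 3 had the lowest weight of the 6 (0.222). Saline replicate 2 had the next (0.43, against 2.36 for replicate 1). All calls with library weights below thus rest mostly on saline replicate 1. Without saline replicate 2 the same test called 456 genes (3.22%), 303 higher (2.14%) and 153 lower (1.08%). Of the 303, replicate 2 lay within the uninjured range for 132 and beyond it on the same side for 114. All 456 had the same sign with replicate 2 included. The count was 0 without saline replicate 1, 9 without saline replicate 3 (0.0636%) and 1 without uninjured replicate 2 (0.00706%). It was 2 when limma saw the 6 compared libraries alone (0.0141%). Saline replicate 2 was singled out after its values were seen. Leaving out the saline library nearest to uninjured favors larger differences, so calls without it are descriptions and not independent tests. Gene list medians are given with and without saline replicate 2 for most lists below, and what set it apart was not tested.

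The labelled tissue was borne out by its markers, since Acta1, skeletal muscle actin, lay between 19363 and 32412 CPM in the 6 libraries. The sum of 5 fiber markers was 105543, 110188 and 132154 CPM in uninjured replicates 1 to 3 and 91668, 134703 and 74038 CPM in saline replicates 1 to 3. The sum of 5 white adipocyte markers was 487, 1937 and 734 CPM in the uninjured and 426, 319 and 134 CPM in the saline libraries. The sum of 4 tendon cell markers came to 103, 95.4 and 179 CPM uninjured and to 265, 51.3 and 378 CPM with saline, so saline replicate 2 was the lowest of all 6. In bulk muscle, fewer cells of a type and less RNA per cell cannot be told apart.

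**Figure D1:**
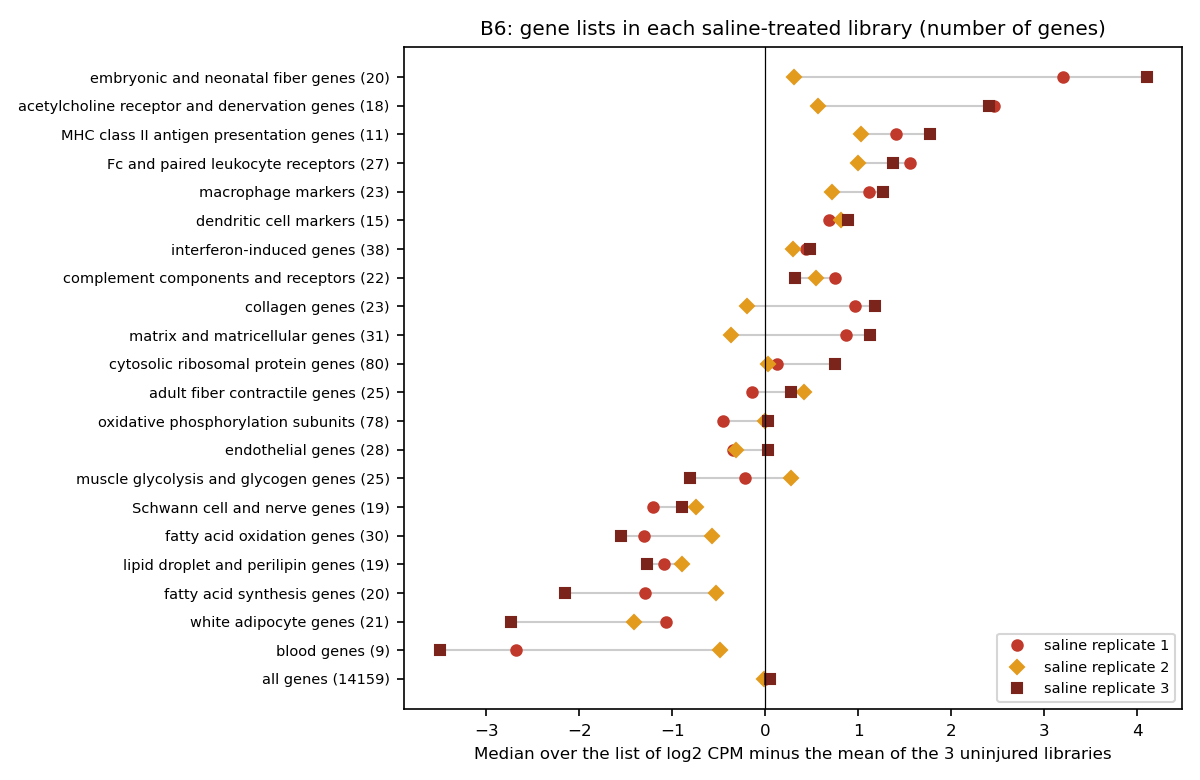
Median over each gene list of the log2 CPM in saline replicates 1 (circles), 2 (diamonds) and 3 (squares), minus the mean of the 3 uninjured libraries, with the number of genes in parentheses. Replicate 2 sat at 0.31 for embryonic and neonatal fiber genes, where the others sat at 3.20 and 4.10, but at 1.03 for MHC class II genes, where the others sat at 1.41 and 1.77.

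Genes of newly formed muscle fibers had the highest median of the 49 gene lists in saline muscle. Of 20 measured embryonic and neonatal fiber genes, 19 had a positive log2 fold change (48.6% of all genes did), with a median of 2.25 on the log2 scale against -0.01 over all genes. In 8 of the 20 every saline library lay above every uninjured library (8.59% of all genes), and none was called with all libraries. Without saline replicate 2 the median was 3.69 and 9 of the 20 were called higher (2.14% of all genes). In 16 of the 20, saline replicates 1 and 3 lay above all uninjured libraries (21.8% of all genes), and in 6 of these replicate 2 lay within the uninjured range (8.65% of all genes). The median in saline replicate 2 alone was 0.31 above the uninjured mean, against 3.20 and 4.10 in replicates 1 and 3.

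Myh8, neonatal myosin heavy chain, was at 7.56, 6.63 and 9.58 CPM in uninjured replicates 1 to 3 and at 603, 8.88 and 595 CPM in saline replicates 1 to 3. The first and the third saline library were far above the uninjured libraries, and replicate 2 lay inside their range. The log2 difference was 4.22 ± 1.23 (SE, n = 3 per group, limma adjusted p = 0.283), and 6.24 without replicate 2 (limma adjusted p = 0.00328). Among the other injured B6 muscles, Myh8 was at 81.9, 217 and 210 CPM with ECM and 199, 74.6 and 231 CPM with PE, so saline replicate 2 was the lowest of the 9 injured libraries. Myh3, the embryonic myosin heavy chain, went from 7.94, 1.66 and 3.61 CPM uninjured to 182, 5.91 and 235 CPM with saline, again with replicate 2 inside the uninjured range (log2 difference 4.09 ± 1.27, limma adjusted p = 0.298, and 0.0125 without replicate 2). Sln, which encodes sarcolipin, an inhibitor of the calcium pump of the sarcoplasmic reticulum, was at 7.04, 4.71 and 5.84 CPM uninjured and 409, 5.49 and 901 CPM with saline.

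Tnnt2, the cardiac troponin T that developing skeletal fibers also make, was at 3.09, 0.349 and 1.77 CPM uninjured and 38.1, 5.10 and 64.8 CPM with saline. Here all 3 saline libraries lay above all 3 uninjured libraries, replicate 2 included (log2 difference 4.11 ± 0.99, limma adjusted p = 0.223). The same held for Ncam1, the neural cell adhesion molecule of regenerating and denervated fibers, at 5.46, 2.64 and 4.31 CPM uninjured against 88.4, 5.84 and 77.7 CPM with saline. Both genes were called higher without replicate 2 (limma adjusted p = 0.0101 for Tnnt2 and 0.00482 for Ncam1). Col19a1, a collagen that myogenic cells produce, was at 0.405, 0.518 and 0.392 CPM uninjured and at 12.2, 0.824 and 14.5 CPM with saline, with the groups apart.

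Of 21 measured regulators and fusion genes, 15 were higher and 6 lower (19 and 2 with equal totals), with a median log2 difference of 0.19 with or without saline replicate 2, and Myod1, Myog, Hes6 and Megf10 were called higher without replicate 2. Myog, which encodes myogenin, was at 5.18, 4.16 and 7.94 CPM uninjured and 101, 6.13 and 148 CPM with saline (log2 difference 3.01 ± 0.85, limma adjusted p = 0.250, and 0.00314 without replicate 2). Myod1 was at 27.3, 15.4 and 32.6 CPM uninjured and 114, 31.3 and 104 CPM with saline, and was called higher without replicate 2 (log2 difference 2.18, limma adjusted p = 0.0246). In both genes saline replicate 2 lay inside the uninjured range and the other saline libraries above it. Tmem8c, an older symbol of the fusion protein gene Mymk, was at 1.32, 0.335 and 0.321 CPM uninjured and 19.9, 0.240 and 33.2 CPM with saline, so replicate 2 was the lowest of all 6. Pax7, the marker of satellite cells, overlapped between the groups, at 4.39, 3.46 and 5.03 CPM uninjured and 4.43, 3.81 and 4.49 CPM with saline.

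Other genes with the same split included Cdkn1a, the cell cycle inhibitor p21, at 29.5, 49.4 and 65.5 CPM uninjured and 472, 27.9 and 468 CPM with saline. Rrad, a small GTPase that binds calcium channels, was at 8.34, 3.65 and 4.88 CPM uninjured and 220, 4.68 and 314 CPM with saline. Krt18, an intermediate filament gene, was at 6.06, 7.69 and 5.57 CPM uninjured and 118, 4.84 and 169 CPM with saline. All 3 genes were called higher without replicate 2 (limma adjusted p = 0.00848, 0.00354 and 0.0156), and in Cdkn1a and Krt18 replicate 2 was the lowest of the 6 libraries. Dll1, a Notch ligand, was at 6.95, 6.40 and 6.96 CPM uninjured and 36.8, 7.35 and 49.1 CPM with saline, so that its groups did not overlap. Mstn, which encodes myostatin, the brake on muscle growth, was lower, at 60.2, 71.3 and 89.6 CPM uninjured and 28.8, 48.2 and 17.5 CPM with saline. Its groups did not overlap either, though it was not called with or without replicate 2 (log2 difference -1.33 ± 0.51, limma adjusted p = 0.327, and 0.0875 without it). The 25 adult contractile genes, by contrast, had a median log2 difference of 0.19, with 17 higher, 8 lower and none called, and this median was -0.23 without uninjured replicate 2.

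The subunits of the muscle acetylcholine receptor could be read for the fetal and the adult form. Of 18 measured acetylcholine receptor and denervation genes, 17 were higher, 9 without overlap between the groups (8.59% of all genes lay wholly above). The median log2 difference was 1.90 (1.20 without uninjured replicate 2). Without saline replicate 2 the median was 2.34 and 9 of the 18 were called higher (2.14% of all genes). Chrng, the gamma subunit of the fetal receptor (chromosome 1, 87132379 to 87140416, plus strand, GRCm39), was at 0.875, 0.350 and 0.273 CPM uninjured and 47.6, 1.44 and 64.1 CPM with saline. Every saline library lay above every uninjured library, replicate 2 by the least (log2 difference 4.99 ± 1.33, limma adjusted p = 0.240, and 0.00884 without replicate 2). Chrne, the epsilon subunit that replaces gamma in the adult receptor, overlapped instead, at 11.3, 0.822 and 5.74 CPM uninjured and 9.79, 16.7 and 10.5 CPM with saline (log2 difference 1.62 ± 0.75, limma adjusted p = 0.389). Its value was 0.57 without uninjured replicate 2, the library in which it was lowest.

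Chrna1, the alpha subunit that both receptor forms hold, was at 15.4, 2.81 and 7.96 CPM uninjured and 169, 21.7 and 164 CPM with saline, with no overlap. Chrnd, the delta subunit next to Chrng on chromosome 1, was at 5.5, 1.11 and 1.71 CPM uninjured and 58.4, 6.08 and 68.5 CPM with saline, also without overlap. Chrnb1, the beta subunit, was at 38.6, 25.3 and 48.5 CPM uninjured and 158, 45.7 and 282 CPM with saline, and only replicate 2 fell inside the uninjured range. These 3 subunits were called higher without saline replicate 2 (log2 differences 4.55, 4.79 and 2.54, limma adjusted p = 0.0101, 0.0144 and 0.0101).

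**Figure D2:**
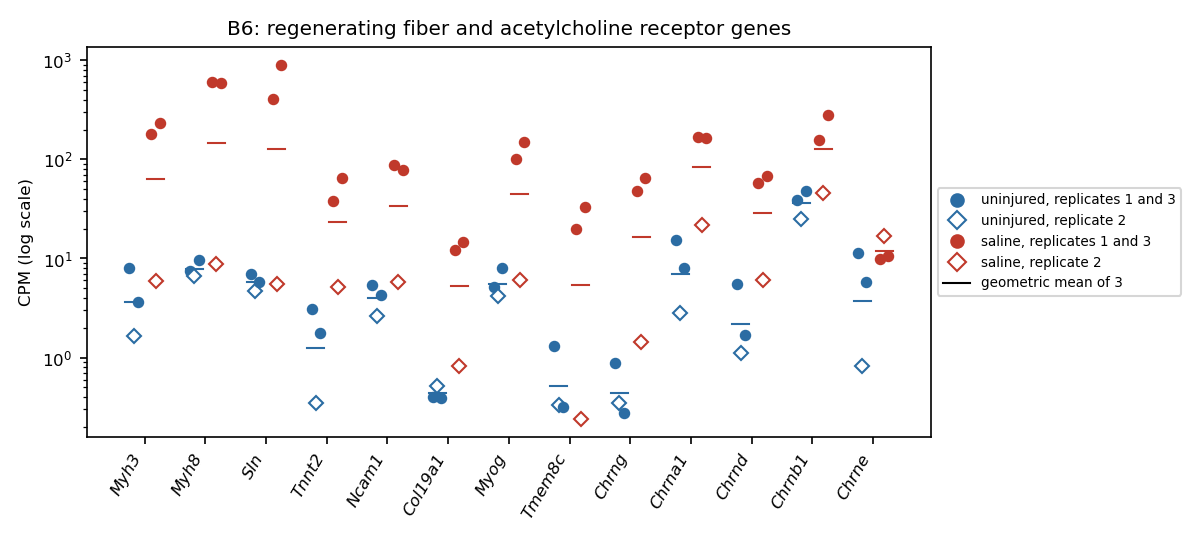
CPM on a log scale in the 3 uninjured (blue) and 3 saline (red) B6 libraries, with replicate 2 of each group as an open diamond and bars at geometric means. Saline replicates 1 and 3 stood above the uninjured libraries in every gene shown but Chrne, while saline replicate 2 lay inside the uninjured range in Myh3, Myh8, Sln, Myog and Chrnb1.

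Chrng, Myog and Myh3 are shown with the sequence before their start sites because all were higher in saline replicates 1 and 3, and because myogenic factors bind the E box, CANNTG, which reads the same on both strands. The sequences are RefSeq promoters from a GRCm38.p6 table, placed on GRCm39 by their single exact match and limited to bases outside annotated exons, with each CANNTG in capitals. They cover chr1:87133283-87133491 for Chrng, chr1:134217492-134217706 for Myog and chr11:66968876-66969125 for Myh3, all on the plus strand. The Chrng stretch precedes the RefSeq start but lies inside the gene span given above, which begins further upstream in GENCODE.
Chrng: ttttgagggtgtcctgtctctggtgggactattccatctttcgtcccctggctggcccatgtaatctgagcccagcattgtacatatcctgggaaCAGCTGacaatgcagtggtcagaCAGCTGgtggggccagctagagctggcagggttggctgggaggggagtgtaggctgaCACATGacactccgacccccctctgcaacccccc
Myog: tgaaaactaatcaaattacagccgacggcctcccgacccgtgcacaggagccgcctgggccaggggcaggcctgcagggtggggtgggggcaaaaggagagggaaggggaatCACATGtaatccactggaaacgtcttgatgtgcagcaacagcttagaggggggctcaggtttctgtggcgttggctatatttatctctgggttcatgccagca
Myh3: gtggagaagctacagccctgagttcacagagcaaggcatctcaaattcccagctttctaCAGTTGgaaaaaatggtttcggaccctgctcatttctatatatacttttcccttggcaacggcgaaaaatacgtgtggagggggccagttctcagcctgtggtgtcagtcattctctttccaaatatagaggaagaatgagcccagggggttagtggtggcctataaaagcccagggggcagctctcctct
The Chrng stretch held 3 such motifs, and 12.2% of 32851 RefSeq promoters held 3 or more. The printed Myog and Myh3 stretches held 1 each, and 66.2% of promoters held at least 1. These shares are over full windows of 250 bases. The full Myog window, with its exon bases, held 2, and 31.8% of promoters held at least 2. A match is a description of letters and not of a bound site.

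In the macrophage, antigen presentation and Fc receptor lists the medians of all 3 saline libraries lay above the uninjured mean. Of 23 measured macrophage markers 21 were higher, 15 of them without overlap (8.59% of all genes), with a median log2 difference of 1.01 (1.09 without saline replicate 2), and the medians of saline replicates 1 to 3 were 1.12, 0.72 and 1.27 above the uninjured mean. Of 11 MHC class II presentation genes 10 were higher and 8 did not overlap (median 1.25, and 1.52 without saline replicate 2). Of 27 Fc and paired leukocyte receptors 25 were higher and 15 did not overlap (median 1.17, and 1.38 without saline replicate 2). None of these genes was called with all libraries, and without saline replicate 2 Cx3cr1 alone was. Saline replicates 1 and 3 lay above all uninjured libraries in 17 macrophage markers, 9 class II genes and 21 receptors, with replicate 2 inside the uninjured range in 2, 0 and 5 of them. With libraries weighted by their agreement with their group (1076 genes called, 7.60% of all, 4.68% of genes higher and 2.92% lower), 7 macrophage markers, 5 class II genes and 7 receptors were called higher. These weighted calls rest mostly on saline replicate 1.

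Cd74, the invariant chain that escorts class II molecules, was at 49.8, 58.2 and 46.8 CPM uninjured and 175, 111 and 172 CPM with saline. H2-Ab1, a class II beta chain, was at 25.0, 33.6 and 21.4 CPM uninjured and 91.0, 61.7 and 98.0 CPM with saline. Ciita, the master activator of class II genes, was at 1.26, 2.01 and 0.870 CPM uninjured and 3.61, 2.56 and 5.22 CPM with saline. In all 3 genes every saline library lay above every uninjured library, replicate 2 being the lowest of the saline libraries. The log2 differences were 1.54 ± 0.51 for Cd74, 1.64 ± 0.54 for H2-Ab1 and 1.43 ± 0.49 for Ciita, each with a limma adjusted p of 0.303.

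H2-Aa, the class II alpha chain, was at 21.3, 27.5 and 20 CPM uninjured and 73.5, 49.7 and 82.4 CPM with saline, again with no overlap (log2 difference 1.56 ± 0.58, limma adjusted p = 0.316). Its RefSeq promoter is shown because 10 of 11 class II genes were higher. Class II promoters are known for a Y box, an inverted CCAAT, so CCAAT on either strand is in capitals. The stretch is chr17:34506799-34507047, minus strand, GRCm39.
H2-Aa: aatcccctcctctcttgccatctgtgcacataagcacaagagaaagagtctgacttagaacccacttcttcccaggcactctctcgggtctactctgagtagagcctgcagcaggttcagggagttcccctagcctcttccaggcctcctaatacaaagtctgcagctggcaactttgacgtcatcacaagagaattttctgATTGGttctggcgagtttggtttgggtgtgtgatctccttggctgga
It held 1 such motif, read here as ATTGG, and 33.8% of RefSeq promoters held at least 1.

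Aif1, which encodes the macrophage protein IBA1, was at 0.545, 0.606 and 0.433 CPM uninjured and 2.39, 3.10 and 2.08 CPM with saline (log2 difference 2.09 ± 0.57, limma adjusted p = 0.245). Fcgr1, the high-affinity IgG receptor, was at 1.22, 0.926 and 0.716 CPM uninjured and 4.51, 3.12 and 3.42 CPM with saline. Ctss, the protease cathepsin S that trims the invariant chain, was at 7.39, 7.73 and 11.3 CPM uninjured and 34.4, 23.1 and 31.3 CPM with saline. Saline was above uninjured in every library for all 3 genes, and replicate 2 was the highest saline library for Aif1. Cd68, the lysosomal macrophage glycoprotein, was likewise apart, at 3.70, 3.77 and 4.59 CPM uninjured and 9.64, 8.09 and 11.2 CPM with saline. Adgre1, which encodes F4/80, had no row in the table.

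Genes of lipid-handling macrophages were mixed, with 15 of 24 higher (9 without overlap) and 9 lower (3 without overlap). Over all genes, 8.59% lay wholly above and 7.34% wholly below. The median log2 difference of the list was 0.47 (0.64 without saline replicate 2). Lgals3, the lectin galectin-3, was at 4.27, 5.18 and 6.99 CPM uninjured and 36.1, 15.3 and 42.2 CPM with saline. Trem2, a lipid-sensing receptor, was at 0.839, 0.850 and 1.22 CPM uninjured and 6.65, 3.90 and 5.75 CPM with saline. Gpnmb, a lysosomal glycoprotein, was at 2.64, 2.29 and 11.8 CPM uninjured and 30.3, 31.7 and 27.1 CPM with saline. The groups did not overlap in any of the 3 genes, but uninjured replicate 3 was raised for Gpnmb. The macrophage elastase Mmp12 showed this more strongly, at 0.586, 0.890 and 13.7 CPM uninjured and 24.7, 26.1 and 20.8 CPM with saline (log2 difference 3.52 ± 1.96, limma adjusted p = 0.464).

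The genes of resident and alternatively activated macrophages went the other way in part. Of 20 measured, 9 were higher and 11 lower (median -0.21, and -0.55 without saline replicate 2). The medians were -0.34 and -0.50 in saline replicates 1 and 3 but 0.63 in replicate 2. In 5 genes saline lay wholly above uninjured (8.59% of all genes), and in 0 wholly below (7.34% of all genes). Arg1 was among the 5, at 0.736, 0.756 and 0.377 CPM uninjured and 1.60, 2.07 and 2.50 CPM with saline. Chil3 was another, at 0.131, 0.0419 and 0.134 CPM uninjured and 0.874, 1.36 and 1.10 CPM with saline. Cd209f, a C-type lectin of resident macrophages, was at 4.44, 4.86 and 3.90 CPM uninjured and 0.511, 13.1 and 0.768 CPM with saline. Cd209g, its neighbor in that family, was at 1.67, 1.27 and 1.80 CPM uninjured and 0.121, 4.72 and 0.240 CPM with saline. In both, saline replicate 2 was the highest of the 6 libraries and the other saline libraries were the lowest, and Cd209g was called lower without replicate 2 (log2 difference -2.70, limma adjusted p = 0.0364). Reads of these related genes may be shared, so each value is uncertain.

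Cd4, the coreceptor of helper T cells that some macrophages and dendritic cells also carry, was at 0.348, 0.378 and 0.214 CPM uninjured and 2.11, 1.32 and 1.88 CPM with saline. Its groups were far apart (log2 difference 2.24 ± 0.39, limma adjusted p = 0.197), and it was called without saline replicate 2 (0.00862) and with library weights (limma adjusted p = 0.0014). The T cell receptor chain gene Cd3e did not follow, at 1.32, 0.504 and 0.852 CPM uninjured and 1.51, 0.409 and 0.414 CPM with saline. Its relatives Cd3d and Cd3g had log2 differences of 0.30 and 1.55, with overlap. Of 17 measured T, natural killer and B cell markers, 15 were higher and 2 lower, Cd3e among the lower (median 0.44). Of these markers 3 lay wholly above the uninjured libraries (8.59% of all genes did). Ccr7, the receptor that draws dendritic cells and T cells to lymph nodes, was at 0.0439, 0.126 and 0.0896 CPM uninjured and 0.763, 0.440 and 1.23 CPM with saline. Ccl22, a chemokine of mature dendritic cells, was at 0, 0.124 and 0 CPM uninjured and 1.42, 0.436 and 1.16 CPM with saline. The uninjured values of both genes lie around 0.119 CPM, which is 3 counts in a library of mean size, and no fold is given. Of 15 dendritic cell markers 10 were higher and 5 lower, and 7 lay wholly above the uninjured libraries (8.59% of all genes).

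Ccl8, a macrophage chemokine, was at 0.536, 0.420 and 0.404 CPM uninjured and 2.80, 3.90 and 2.67 CPM with saline, while of 33 chemokines and receptors 26 were higher (median 0.54). Cx3cr1, the fractalkine receptor of monocytes, followed the fiber genes instead, at 1.41, 0.917 and 0.297 CPM uninjured and 8.80, 1.15 and 8.04 CPM with saline. It was called higher without saline replicate 2 (log2 difference 3.37, limma adjusted p = 0.0433). The neutrophil markers S100a8 and S100a9 were at or below 0.739 CPM in all 6 libraries.

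**Figure D3:**
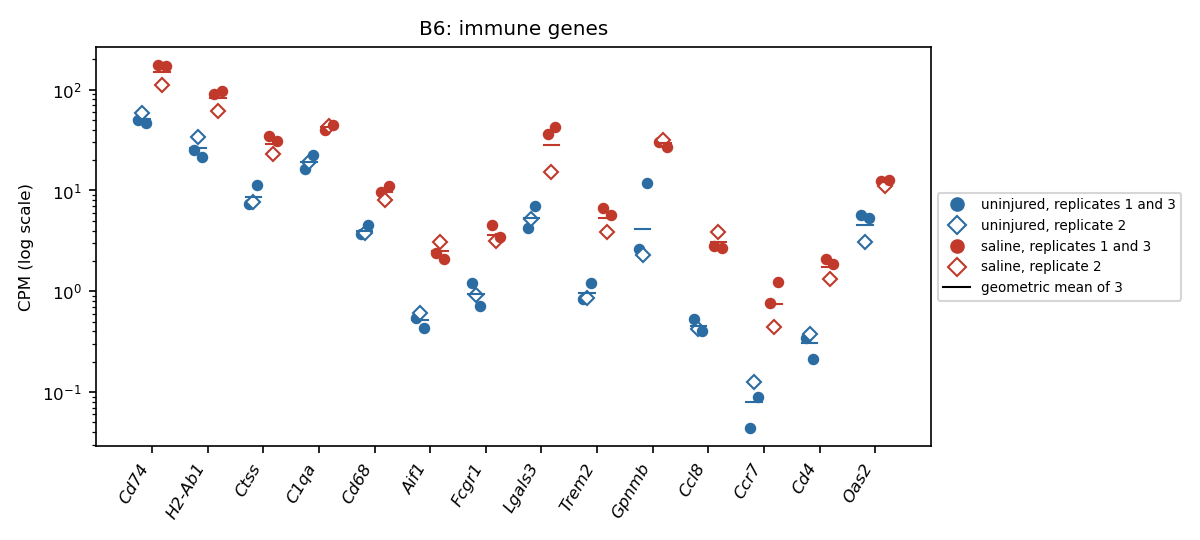
CPM on a log scale of immune genes in the 3 uninjured (blue) and 3 saline (red) B6 libraries, with replicate 2 of each group as an open diamond and bars at geometric means. All 3 saline libraries lay above all 3 uninjured libraries in every gene shown, as for Cd74, where saline lay at 111 CPM or more and uninjured at 58.2 CPM or less.

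Interferon-induced genes were modestly higher. Of 38 measured 26 were higher, 16 of them without overlap (8.59% of all genes lay wholly above). The median log2 difference was 0.37 (0.44 without saline replicate 2). Oas1a, an antiviral sensor of double-stranded RNA, was at 1.69, 1.03 and 1.23 CPM uninjured and 5.73, 4.97 and 4.38 CPM with saline. Its relative Oas2 was at 5.71, 3.08 and 5.34 CPM uninjured and 12.5, 11.2 and 12.8 CPM with saline. Both held in all 3 saline libraries. Ifitm3, which blocks virus entry, was at 24.2, 23.8 and 27.6 CPM uninjured and 89.7, 34.4 and 124 CPM with saline, and Gbp6, an interferon-gamma target, at 3.01, 3.66 and 2.87 CPM and 19.6, 4.13 and 23.5 CPM. These 2 genes did not overlap between the groups but were nearest to uninjured in saline replicate 2, and both were called higher without it (limma adjusted p = 0.0237 for Ifitm3 and 0.0144 for Gbp6). Among complement genes 17 of 22 were higher (median 0.53, and 0.56 without saline replicate 2), with C1qa at 16.5, 19 and 22.4 CPM uninjured and 40.0, 43.3 and 44.8 CPM with saline.

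By their medians, matrix genes were higher in saline replicates 1 and 3 and not in replicate 2. Of 23 collagen genes 19 were higher, 5 without overlap (8.59% of all genes lay wholly above). The median log2 difference of the list was 0.57, or 1.07 without saline replicate 2. The medians were 0.96 and 1.18 in saline replicates 1 and 3 and -0.20 in replicate 2. For 31 matrix and matricellular genes they were 0.87, 1.13 and -0.37. Of these 31, 2 lay wholly above the uninjured libraries and 3 wholly below (8.59% and 7.34% of all genes). Col1a1, a chain of fibrillar collagen I, was at 303, 279 and 427 CPM uninjured and 1030, 450 and 1135 CPM with saline. Col3a1, collagen III, was at 491, 386 and 534 CPM uninjured and 1407, 633 and 1694 CPM with saline. Neither overlapped between the groups and neither was called with or without replicate 2 (limma adjusted p = 0.475 and 0.419 with all libraries). Cilp, a matrix protein of cartilage and fibroblasts, was at 44.1, 26.5 and 55.2 CPM uninjured and 535, 41.5 and 434 CPM with saline, and was called higher without replicate 2 (limma adjusted p = 0.0302). Tgfb1, the cytokine that drives fibrosis, was at 7.84, 8.70 and 6.39 CPM uninjured and 29.5, 9.66 and 29.0 CPM with saline. The tendon cell marker sum given above was also raised in replicates 1 and 3 and lowest in replicate 2, and its part in the matrix values was not tested.

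Genes of fatty acid oxidation were lower in saline muscle. All 30 measured had a negative log2 fold change (51.4% of all genes did), 21 without overlap (7.34% of all genes lay wholly below), with a median of -1.16, or -1.44 without saline replicate 2. The medians of saline replicates 1 to 3 were -1.30, -0.57 and -1.55, so replicate 2 was on the same side. In 25 genes saline replicates 1 and 3 lay below all uninjured libraries (18.5% of all genes), with replicate 2 inside the uninjured range in 4 (7.30% of all genes). Without uninjured replicate 2, the library richest in fat transcripts, all 30 stayed negative and the median was -0.94. None was called with all libraries, Acadm, medium-chain acyl-CoA dehydrogenase, was called lower without saline replicate 2, and 17 were called lower with library weights (2.92% of all genes).

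Cd36, the fatty acid transporter, was at 305, 640 and 452 CPM uninjured and 138, 235 and 98.3 CPM with saline. Acsl1, which links fatty acids to coenzyme A, was at 476, 989 and 819 CPM uninjured and 349, 412 and 154 CPM with saline. Decr1, a mitochondrial enzyme for unsaturated fatty acids, was at 160, 273 and 177 CPM uninjured and 74.1, 128 and 59.7 CPM with saline. Every saline library lay below every uninjured library in all 3 genes, with saline replicate 2 nearest to uninjured. Their log2 differences were -1.60 ± 0.57, -1.37 ± 0.58 and -1.26 ± 0.40 (limma adjusted p = 0.303, 0.366 and 0.302). Ppara, the nuclear receptor that drives these genes, was also apart, at 20.1, 57.3 and 19.8 CPM uninjured and 6.22, 13.3 and 3.12 CPM with saline. Acss1, the mitochondrial acetyl-CoA synthetase, which the list did not hold, was at 58.3, 89.8 and 66.8 CPM uninjured and 13.2, 56.3 and 11.1 CPM with saline, and was called lower without saline replicate 2 (log2 difference -2.53, limma adjusted p = 0.00439).

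Plin5, which coats lipid droplets in oxidative tissue, was at 17.9, 42.2 and 53.5 CPM uninjured and 6.41, 12.4 and 5.88 CPM with saline, with no overlap. Pdk4, the kinase that turns off glucose oxidation, overlapped, at 257, 887 and 2743 CPM uninjured and 173, 180 and 384 CPM with saline. Acsm3, a medium-chain acyl-CoA synthetase, was at 9.87, 69.9 and 14.6 CPM uninjured and 0.902, 1.17 and 2.77 CPM with saline. Of 19 lipid droplet genes 18 were lower (median -1.0, and -1.23 without saline replicate 2). In contrast, of 78 oxidative phosphorylation subunits 58 were lower (41 with equal totals) with a median of -0.16 (-0.01 with equal totals), and saline replicate 1 alone was low (-0.46, against 0.00 and 0.03 in replicates 2 and 3). Of 25 glycolysis and glycogen genes 21 were lower (median -0.34, and -0.61 without saline replicate 2), with saline replicate 2 at 0.28 and replicates 1 and 3 at -0.22 and -0.81.

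Adipocyte genes were lower as well, and here the spread among uninjured muscles was wide. All 21 measured white adipocyte genes had a negative log2 fold change (20 with equal totals or quantile normalization). In 13 the groups did not overlap (7.34% of all genes lay wholly below), and the median was -1.70. The median was -1.93 without saline replicate 2, and -1.20 with 20 negative without uninjured replicate 2. Adipoq, the hormone adiponectin, was at 119, 434 and 158 CPM uninjured and 95.9, 81.9 and 27.8 CPM with saline. Lipe, hormone-sensitive lipase, was at 73.1, 448 and 121 CPM uninjured and 54.1, 53.6 and 23.1 CPM with saline. Pck1, an enzyme of glyceride and glucose synthesis, was at 72.9, 1636 and 391 CPM uninjured and 59.9, 36.2 and 22.1 CPM with saline. Uninjured replicate 2 was the highest library in each, yet the groups stayed apart without it. None was called (limma adjusted p = 0.539, 0.460 and 0.370).

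Of the brown fat list, Ucp1, Cidea and Otop1 had the most negative log2 differences. Ucp1, the uncoupling protein that makes heat in brown fat, was at 14.4, 283 and 57 CPM uninjured and 0.0381, 0.0400 and 1.10 CPM with saline. Saline replicates 1 and 2 lay under 0.119 CPM, the level of 3 counts, so the fitted log2 difference of -7.92 ± 1.81 (limma adjusted p = 0.223) depends on the prior count and is no measure of a fold. Cidea, a lipid droplet protein of brown and beige fat, was at 21.2, 335 and 22.1 CPM uninjured and 1.10, 1.00 and 2.38 CPM with saline (log2 difference -5.21 ± 1.55, limma adjusted p = 0.288, and -3.89 without uninjured replicate 2). Otop1, a proton channel of brown fat, was at 6.22, 56.4 and 7.50 CPM uninjured and 0.639, 0.548 and 0.535 CPM with saline. These genes did not overlap between the groups, and they were called lower with library weights (limma adjusted p = 0.00845 for Ucp1, 0.0271 for Cidea and 0.0498 for Otop1). Over the 15 measured brown fat genes 14 were lower (median -0.88, and -0.97 without saline replicate 2), 5 without overlap (7.34% of all genes lay wholly below). The sum of 5 white adipocyte markers was lower as well, at 487 CPM or more uninjured and 426 CPM or less with saline. Summed over all 21 white adipocyte genes the groups overlapped, at 4650, 14989 and 6398 CPM uninjured and 4613, 4708 and 5373 CPM with saline. With library weights 0 of the 21 were called. How much adjoining fat entered each sample was not tested.

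**Figure D4:**
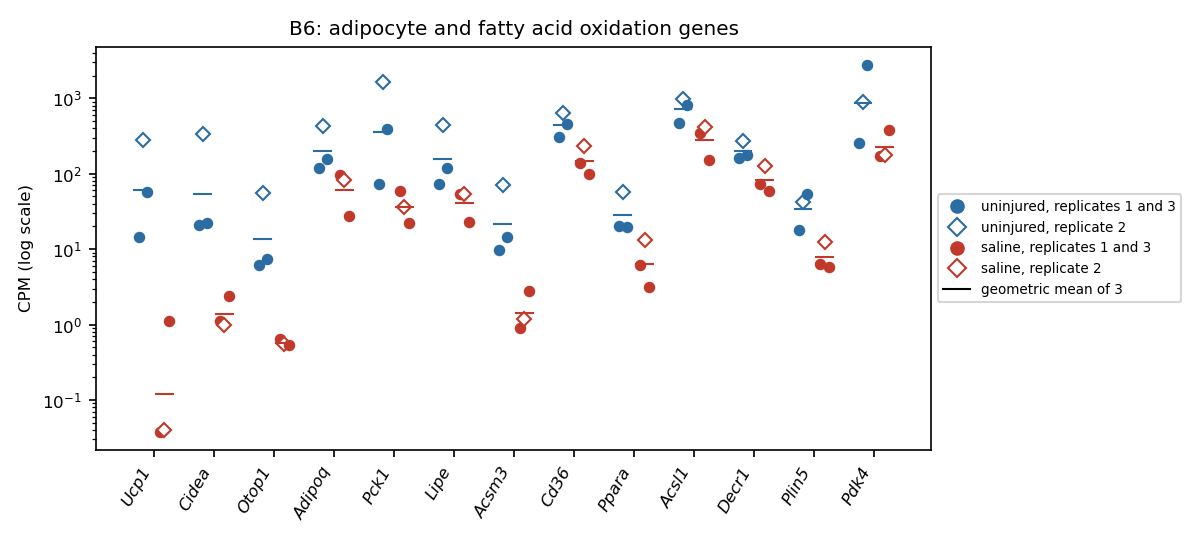
CPM on a log scale of adipocyte and fatty acid oxidation genes in the 3 uninjured (blue) and 3 saline (red) B6 libraries, with replicate 2 of each group as an open diamond and bars at geometric means. Uninjured replicate 2 was the highest library for most genes, as for Pck1 at 1636 CPM, and every gene shown but Pdk4 was lower in all 3 saline libraries than in all 3 uninjured ones.

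Blood genes also set saline replicate 2 apart from the other saline libraries. Of 9 measured, 7 were lower, with a median log2 difference of -2.24. Without saline replicate 2 the median was -3.11 and 6 were called lower (1.08% of all genes). Hbb-bs, an adult beta globin, was at 864, 483 and 1071 CPM uninjured and 116, 543 and 67.7 CPM with saline. Alas2, the heme synthesis enzyme of red cell precursors, was at 28.0, 16.1 and 34.7 CPM uninjured and 2.68, 16.3 and 1.67 CPM with saline. Saline replicates 1 and 3 lay below all uninjured libraries and replicate 2 among them in both genes (limma adjusted p = 0.0293 for Hbb-bs and 0.0227 for Alas2 without replicate 2). Globin genes are near-identical copies, so the split of reads between them is uncertain. How much blood each muscle held was not tested.

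Mast cell genes were lower too. Cpa3, a mast cell protease, was at 4.02, 2.47 and 4.96 CPM uninjured and 0.796, 1.59 and 0.788 CPM with saline, with no overlap. Mcpt4, the mast cell chymase, was at 9.25, 2.99 and 10.9 CPM uninjured and 1.78, 3.29 and 1.37 CPM with saline, with saline replicate 2 above uninjured replicate 2. Both were called lower without saline replicate 2 (limma adjusted p = 0.0421 for Cpa3 and 0.0378 for Mcpt4). Hdc, which makes histamine, was at 1.52, 2.47 and 1.84 CPM uninjured and 0.304, 0.634 and 0.670 CPM with saline. Of 10 eosinophil and mast cell markers measured, 8 were lower and 2 higher.

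Of 28 endothelial genes 20 were lower (15 with equal totals), 8 without overlap (7.34% of all genes), with a median log2 difference of -0.19, or -0.17 without saline replicate 2. Kdr, the main receptor for vascular endothelial growth factor, was at 114, 109 and 80.3 CPM uninjured and 50.7, 76.6 and 52.6 CPM with saline, and Flt1, a second receptor for it, at 90.0, 61.0 and 73.2 CPM and 35.3, 57.6 and 46.1 CPM. Neither overlapped between the groups, and both were called lower with library weights (limma adjusted p = 0.0401 and 0.0444). Of 19 Schwann cell and nerve genes 15 were lower (median -0.58, and -0.88 without saline replicate 2), and 3 lay wholly below (7.34% of all genes). The uninjured libraries were spread widely here. Against the uninjured mean, the medians were -0.02, 1.00 and -0.82 in uninjured replicates 1 to 3 and -1.21, -0.74 and -0.90 in saline replicates 1 to 3. Uninjured replicate 3 thus lay among the saline libraries.

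Of 80 cytosolic ribosomal protein genes 77 were higher, with a median log2 difference of 0.29, and this rested on saline replicate 3, at 0.75 against 0.13 and 0.03 in replicates 1 and 2. Of 32 proliferation genes 17 were higher and 15 lower (median 0.09), or 22 and 10 with equal totals.

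The same contrast in MRL muscle used other mice, so it was set beside the B6 values. In MRL mice, too, no gene was called between saline and uninjured muscle (0 of 14159), with 439 (3.10%) at an unadjusted p under 0.05. The difference between the strains' contrasts was called for no gene in limma, with 570 (4.03%) at an unadjusted p under 0.05. Embryonic and neonatal fiber genes had a median of 1.52 in MRL against 2.25 in B6, and acetylcholine receptor and denervation genes 0.70 against 1.90. MHC class II genes had 1.02 against 1.25 and macrophage markers 0.80 against 1.01. Cd74 in MRL muscle was at 27.1, 49.1 and 24.4 CPM uninjured and 155, 35.6 and 49.2 CPM with saline. The MRL groups overlapped for Cd74 and H2-Aa, with saline replicate 1 the highest library, but not for Ciita and Ctss. Fatty acid oxidation genes had -0.03 in MRL, with 12 of 30 higher, against -1.16 in B6, white adipocyte genes -0.12 against -1.70, and blood genes 0.62 against -2.24.

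Myh8 in MRL muscle was at 13.6, 5.28 and 4.19 CPM uninjured and 94.0, 8.75 and 10.1 CPM with saline, so saline replicate 1 alone was clear of the uninjured range. Cd36 was at 342, 414 and 217 CPM uninjured and 256, 471 and 302 CPM with saline in MRL, with overlap, where the B6 groups were apart. The difference between the strains was 1.68 ± 0.81 for Cd36 and -2.64 ± 1.74 for Myh8 on the log2 scale, each with a limma adjusted p of 1.00. For Cd4, MRL muscle had 1.05, 1.17 and 1.19 CPM uninjured and 2.37, 1.00 and 0.844 CPM with saline, and the difference between the strains was -2.09 ± 0.55 (limma adjusted p = 1.00).

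**Figure D5:**
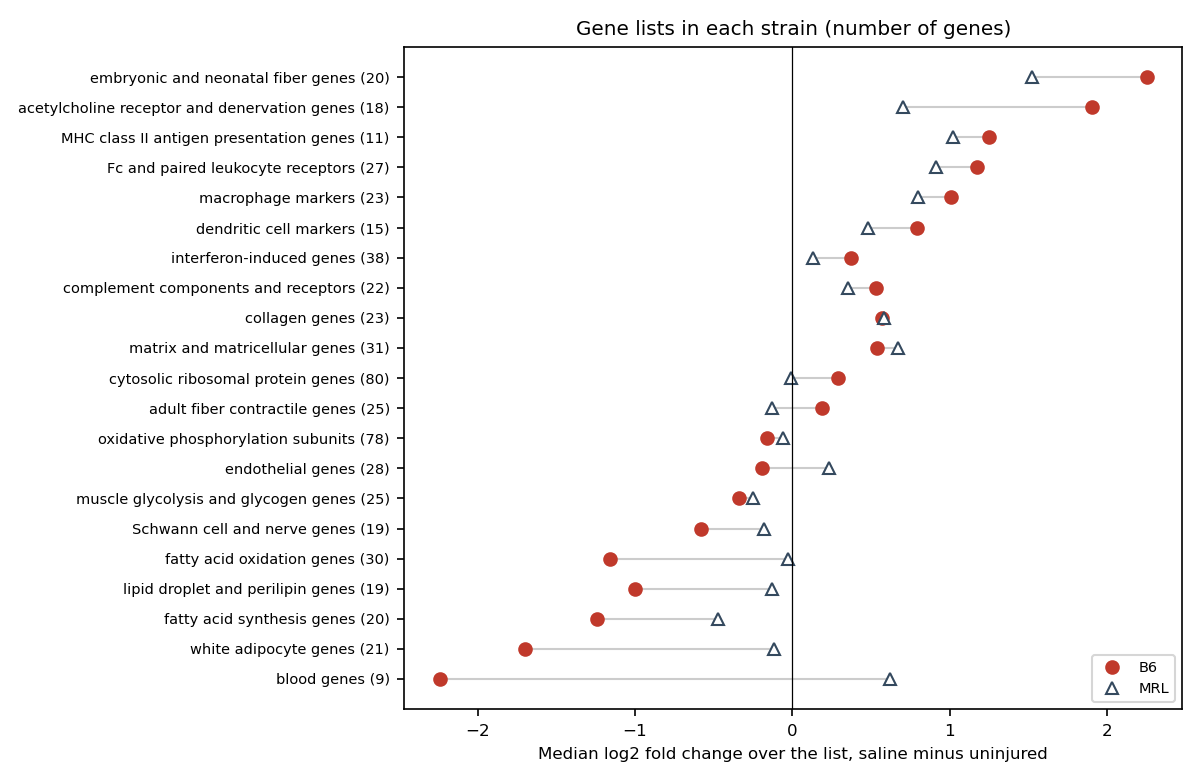
Median log2 fold change, saline minus uninjured, over each gene list in B6 (filled circles) and MRL (open triangles), with the number of genes in parentheses and a gray line joining the strains. Embryonic and neonatal fiber, receptor and immune lists lay above 0 in both strains, as for MHC class II genes at 1.25 and 1.02. The medians do not show the spread among libraries, and MRL saline replicate 1 was the highest MRL library compared for Cd74 and Myh8. Adult fiber contractile genes lay at 0.19 in B6 and -0.13 in MRL, and fatty acid oxidation genes at -1.16 in B6 and -0.03 in MRL.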

How the data were processed

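RNA of whole quadriceps from 24 samples was sequenced in poly(A)-selected, paired-end libraries, 3 per group. The authors pseudoaligned reads with kallisto to the Ensembl GRCm39 transcriptome and summed length-scaled estimates to gene symbols. The authors kept genes above 1 CPM in at least 3 libraries, scaled libraries with edgeR's TMM, and deposited log2 CPM with a prior count of 2. 1 of 14160 rows had no symbol and was dropped. CPM were computed back from the deposited log2 values; the shared lowest value, -3.65, stands for 0 counts and gives a mean library size of 25149678. Library depths are not in the table, so no counting interval is given, and the floor of 3 counts (0.119 CPM) holds for a library of mean size.

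limma 3.58.1 in R 4.3.3 was fitted with 1 coefficient per group over all 24 libraries, with a trend in the prior variance; tests were 2-sided. An exact permutation test of 3 against 3 libraries cannot go below 0.10. Values are given as geometric or log2 means, with SE from limma. The labels do not say how replicates were processed. The p-values and SE rest on the spread between muscles within the 8 groups, pooled over all 24 libraries. They are not the spread of the 6 compared muscles alone. The SE was 0.95 for Cd68 and 0.48 for Acss1 in this fit, and 0.24 and 0.59 with the 2 groups alone. Alternatives were log2(CPM + 1), a filter at a mean log2 CPM of 1, equal totals, quantile normalization, library weights, the 2 groups or the B6 libraries alone, no trend, a replicate block, terms for each sequencing index (copied by hand from the study's library sheet) and leaving out each library. The fit was tested on simulated data. The 49 gene lists and the genes described were chosen with earlier results of these data known. Named genes came from genes the study text names for this comparison, the 10 largest differences in each direction without overlap, among calls without saline replicate 2 and by library weights (predicted genes left out of these), and the first or most different members of each list. Acta1, Acadm, Nme4, Rhbdl2, Igdcc4, Dagla, Gm13204 and the 9 genes called without saline replicate 3 fall outside this rule and were chosen after their values were seen. Gene positions are those of GENCODE on GRCm39. Python 3.11.15, pandas 2.3.3 and matplotlib 3.10.9 were used for summaries and plots. Some items are not reported here.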

Additional observations from a re-analysis of the deposited data

How the results depend on the processing

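The count of genes called between saline and uninjured B6 muscle, 0 with all libraries, ranged from 0 to 456 when each library was left out in turn. It was 456 without saline replicate 2, 9 without saline replicate 3 and 1 (Slc37a4) without uninjured replicate 2. It was 1076 with library weights, 2 with the compared groups alone (Idh3a higher, Itsn2 lower), 3 with no trend in the prior variance (Cd4, Nme4 and Gm13204, all higher) and 1850 with a term for the first sequencing index. That last contrast rests by construction on saline replicate 3 alone. The 3 uninjured libraries and saline replicate 3 share a first index, and saline replicates 1 and 2 carry another. For those 2 libraries, injury and first index cannot be told apart. It stayed 0 with log2(CPM + 1), the filter, equal totals, quantile normalization, the B6 libraries alone and a term for the second index. The count for the difference between the strains, also 0, was 20 with library weights, 226 with the first-index term, and between 0 and 8 with a library left out (8 without saline replicate 3).

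With the replicate block the counts were 3 (Rhbdl2 and Igdcc4 higher, Dagla lower) and 0. Replicate numbers share only a number: the residual correlations of same-numbered saline and uninjured libraries were -0.00119, -0.039 and 0.0263, and replicates 1 and 2 did not correlate best with their own number.

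Signs turned for 3 of 97 genes: Cdh5 to 0.01 on the log2 scale with the second-index term, and Lcn2 to 0.45 and Lalba to 0.17 with the first-index term. Of 833 list medians under alternatives, 732 moved by no more than the SD of the list's medians in the 3 saline libraries, and 101 by more. Where saline replicate 2 stood apart that SD was wide, so large moves could count as within it. The cause was not tested. Equal totals shifted the median of all genes by 0.13 (log2) and the higher share of genes at an unadjusted p under 0.05 from 51.1% to 68.6%, and quantile normalization to 59.1%. Unknown library depths limit values near 0.119 CPM.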

Other observations

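A set of genes that includes milk and epithelial genes was low in libraries that share sequencing indexes. Saline replicates 1 and 2 carry 2 of the 8 second index sequences, which no other B6 library of this comparison carries. Over all 24 libraries, 40 genes were lower in all 6 libraries with those indexes than in all 18 others and 0 were higher; any of the other 27 pairs of indexes gave at most 1 lower and 5 higher. Csn3, kappa-casein of milk, was at 77.4, 84.3 and 52.1 CPM in uninjured replicates 1 to 3 and 0.0782, 0.251 and 63.0 CPM in saline replicates 1 to 3. Its log2 difference was -5.55 (limma adjusted p = 0.370), or -0.36 with a term for the second index. Lalba, alpha-lactalbumin, was at 5.02, 5.05 and 3.15 CPM uninjured and 0, 0.0400 and 4.87 CPM with saline. Lcn2, lipocalin 2, was at 12.3, 24.4 and 23.7 CPM uninjured and 0.189, 0.242 and 26.3 CPM with saline. Csn3, Lalba and Lcn2 were called lower with library weights (limma adjusted p = 0.0271, 0.0220 and 0.0137). Spp1, osteopontin, is among the 40, at 27.0, 22.8 and 36.5 CPM uninjured and 7.19, 6.49 and 21.3 CPM with saline. Of the 40, 12 had all saline below all uninjured libraries (7.34% of all genes did). The 40 hold 7 of 16 mammary and skin genes, and Sox10 of the Schwann cell list. The cause was not tested.

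The 9 genes called lower without saline replicate 3 were predicted genes or ribosomal pseudogenes that ran from 8.81 to 644 CPM in MRL muscle. Rps2-ps10 was at 12.1, 10.5 and 12.8 CPM in uninjured B6 and 1.70, 1.37 and 14.4 CPM in saline B6, against 366 to 520 CPM in MRL libraries. Gm13841 and Gm8210 had identical values. Over 17 genes with a median of at least 20 CPM in MRL and at most 5% of it in B6 ECM and PE libraries, a rule chosen after seeing the data, the median level was 2.46%, 2.52% and 2.90% of the MRL median in uninjured replicates 1 to 3 and 0.413%, 0.590% and 2.76% in saline replicates 1 to 3. The ECM libraries had 2.06%, 0.985% and 1.14%, and the PE libraries 1.02%, 2.51% and 2.09%.

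The 2 genes called with the compared groups alone varied widely in the series. Idh3a, a subunit of isocitrate dehydrogenase, was at 2.53, 1.74 and 1.10 CPM uninjured and 97.6, 101 and 136 CPM with saline, within 0 to 152 CPM over 24 libraries. Itsn2, an endocytic scaffold, was at 12.2, 3.64 and 6.68 CPM uninjured and 0 in every saline library, within 0 to 18.1 CPM over 24. Slc37a4, the glucose-6-phosphate transporter, was at 0, 3.38 and 0 CPM uninjured and 5.44, 3.80 and 16.9 CPM with saline, within 0 to 89.7 CPM over 24.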
